A study of Mus musculus with 6 samples.

Results

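The genes described are 8 genes of the synaptic vesicle: the synapsins Syn1, Syn2 and Syn3, synaptophysin (Syp), the vesicle glycoproteins Sv2a and Sv2b, and the vesicular glutamate transporters Slc17a7 (VGLUT1) and Slc17a6 (VGLUT2). These 8 genes were taken by symbol from a table of 31245 mouse genes. Each matched 1 Ensembl identifier, and all 8 passed the filter on low values, a mean of at least 10 normalized counts, as did 16653 genes in all.

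Poly(A) RNA came from 6 primary cultures of mouse cortex, made from pups of postnatal day 1 and used at 12 to 13 days in vitro. 3 cultures received NGPF2 at 1.5 ng/ml for 2 h and 3 received vehicle (PBS) for the same time. The labels give no strain, genotype or sex, and they do not spell out NGPF2. The series describes 3 pairs of cultures from 3 independent experiments, and cultures with the same replicate number are treated here as a pair. By their library names, replicates 2 and 3 of NGPF2 and of vehicle form one set and replicate 1 another, which is called the library set below. Values are given for each pair and for each library set. The titles give replicates 2 and 3 the same library stem and lane, so the spread between them may be in part technical.

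Neurotransmitter is stored in small vesicles that cluster at the presynaptic terminal. Synapsins coat the cytoplasmic face of these vesicles, hold them in the reserve pool, and release them when phosphorylated by calcium- and cAMP-dependent kinases. Synaptophysin is an abundant membrane protein of the vesicle, SV2 proteins are transporter-like glycoproteins that regulate calcium-triggered release, and SV2A is the target of the antiepileptic drug levetiracetam. The vesicular glutamate transporters load the vesicle with glutamate. In rodent cortex VGLUT2 is prominent early in development and VGLUT1 becomes the main form as excitatory synapses mature.

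Libraries held 17478070 to 45193691 counts. The values are normalized counts, that is, counts over the size factor of their library. A log2 difference is NGPF2 minus vehicle, taken after 1 was added to the normalized count. All 9 neuronal markers examined were kept, and their summed level was 145486, 207176 and 207064 normalized counts in NGPF2 replicates 1, 2 and 3 and 146913, 162802 and 160630.2 in vehicle replicates 1, 2 and 3. Glia were present too. The summed level of 12 astrocyte markers was 32888, 20039 and 16732 with NGPF2 and 28933, 76637 and 69038 with vehicle, so that the groups were closer in replicate 1 than in replicates 2 and 3.

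Over the 3 pairs, 0 of the 8 genes passed an adjusted p of 0.05 (limma with the pair in the model), as did 0% of the 16653 genes tested. An unadjusted p under 0.05 was found for Syn2, Syn3 and Slc17a6 and for 2166 genes in all, and voom on recovered counts also called 0 genes. Within replicates 2 and 3, Syn2, Syn3 and Sv2a rose and Slc17a6 fell with NGPF2, 3 genes against a background of 9.77% of genes called higher and 1 against 11.3% called lower (21.1% in either direction). Syn1, Syp, Sv2b and Slc17a7 did not pass there. In pair 1, 0 of the 8 genes differed by more than 2-fold (1 library against 1, no test), where 2.43% of all genes did.

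**Figure D1:**
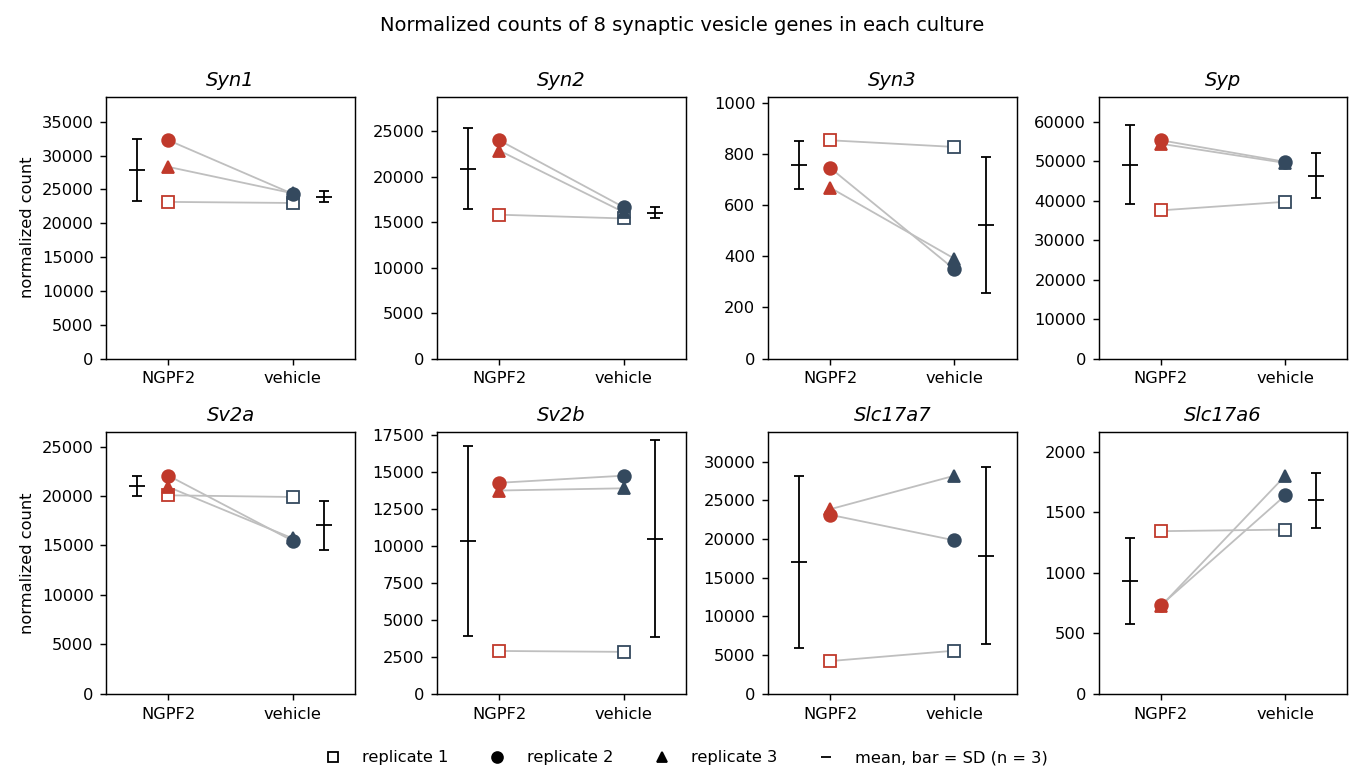
Normalized counts (y axis, from 0) of the 8 genes in each NGPF2 and vehicle culture (x axis); grey lines join pairs, open squares are replicate 1, filled symbols replicates 2 and 3, and side bars give the mean and SD of 3 cultures. The lines of replicate 1 are nearly flat for every gene but Slc17a7 and Syp, while those of replicates 2 and 3 differ most, as a ratio, for Syn3 and Slc17a6, are close to level for Sv2b and run in opposite directions for Slc17a7.

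Per base of transcript, the 8 genes spanned a wide range of levels. FPKM computed from the recovered counts and the union of annotated exons ran from 249 to 333 for Syp, from 241 to 302 for Syn1, from 113 to 150 for Sv2a, from 75.9 to 105 for Syn2, from 27.2 to 180 for Slc17a7, from 11.7 to 59.9 for Sv2b, from 4.19 to 11.5 for Slc17a6 and from 0.965 to 2.40 for Syn3. The ranges of Syp and Syn1 overlapped, although Syp was the higher of the pair in all 6 libraries. The range of Slc17a7 overlapped with those of Sv2a, Syn2 and Sv2b. Slc17a6 and Syn3 lay below the other 6 genes in every library.

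Syn1 (ENSMUSG00000037217, chromosome X, 20860511 to 20921004, minus strand, mm10) encodes synapsin I, the most studied phosphoprotein of the vesicle. It stood at 23147, 32253 and 28317 normalized counts in NGPF2 replicates 1, 2 and 3, against 22986, 24322 and 24413 in vehicle replicates 1, 2 and 3. The pair of replicate 1 was level, and both NGPF2 libraries of replicates 2 and 3 lay above every vehicle library. Within replicates 2 and 3 the log2 difference was 0.31 (SE 0.08, 95% interval 0.10 to 0.52), which missed the threshold (limma, adjusted p = 0.0565). It passed there with a minimum of 50 normalized counts (adjusted p = 0.0424) and with voom (adjusted p = 0.0328). It did not pass with quantile scaling (log2 0.08, limma adjusted p = 0.375), library total scaling (log2 0.18, adjusted p = 0.120) or no filter on low values (adjusted p = 0.279). A pseudocount of 10 (limma adjusted p = 0.0502) and the replicate block (adjusted p = 0.0612) also left it above the threshold.

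Syn2 (ENSMUSG00000009394, chromosome 6, 115134902 to 115282006, plus strand) encodes synapsin II, which maintains the reserve pool at glutamatergic terminals. It held 15823, 24013 and 22881 normalized counts with NGPF2, against 15414, 16654 and 16105 with vehicle. The vehicle cultures lay close together, and NGPF2 replicates 2 and 3 stood apart from all other libraries. The rise within replicates 2 and 3 was 1.43-fold (log2 0.52, SE 0.06, limma adjusted p = 0.00825). Over the 3 pairs the log2 difference was 0.36 (SE 0.13, adjusted p = 0.379).

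Syn3 (ENSMUSG00000059602, chromosome 10, 86055125 to 86498896, minus strand) encodes synapsin III, the form that appears early in developing neurons. Per length it was the scarcest member. It had 853, 745 and 668 normalized counts with NGPF2, against 827, 348 and 390 with vehicle. Here the vehicle libraries of replicates 2 and 3 were the low ones, and NGPF2 replicates 2 and 3 lay between them and both cultures of replicate 1. Within replicates 2 and 3 Syn3 rose 1.91-fold (log2 0.93, SE 0.12, limma adjusted p = 0.00929).

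In mammals each synapsin gene carries a gene for a tissue inhibitor of metalloproteinases, a Timp, within an intron on the opposite strand. In the annotation Timp1 shares 0 exonic bases with Syn1 and Timp4 shares 90 with Syn2, whereas Timp3 shares 1733 bases with Syn3, 14.1% of its exons. The counting of reads on shared bases is not given in the sources used here. Of the 8 genes, Syn3 shares most exonic bases with a gene of comparable level. Timp3 held 904, 264 and 312 normalized counts with NGPF2 and 845, 1802 and 1534 with vehicle. It was lower with NGPF2 in replicates 2 and 3, the direction opposite to that of Syn3. The part of Timp3 reads in the Syn3 counts was not tested.

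Syp has an antisense neighbour as well, Gm14703, which shares 875 exonic bases with it and held at most 12.8 normalized counts in any library.

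The sequence before the annotated start is shown for Syn1 and Syn2, the 2 members nearest to each other in pattern, and for both glutamate transporters, of which Slc17a6 alone passed the test within replicates 2 and 3. Stretches from RefSeq (GRCm38.p6) were trimmed to the bases before every annotated start, and capitals mark motifs found on either strand. The motifs searched were the cAMP response element TGACGTCA, the Egr sites GCGGGGGCG and GCGTGGGCG, and TTCAGCACC, the left part of the RE1 element bound by the neuronal gene repressor REST. Of 32851 windows of 300 bases around annotated starts, 1.79% held the first, 3.47% an Egr site and 0.371% the RE1 part. Syn1 is shown from chrX:20921005-20921168 (minus strand), Syn2 from chr6:115134652-115134901, Slc17a7 from chr7:45163671-45163920 and Slc17a6 from chr7:51621580-51621829 (plus strand).
Syn1: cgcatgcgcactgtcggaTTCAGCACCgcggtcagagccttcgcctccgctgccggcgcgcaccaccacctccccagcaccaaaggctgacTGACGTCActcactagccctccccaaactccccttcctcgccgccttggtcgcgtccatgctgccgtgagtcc
Syn2: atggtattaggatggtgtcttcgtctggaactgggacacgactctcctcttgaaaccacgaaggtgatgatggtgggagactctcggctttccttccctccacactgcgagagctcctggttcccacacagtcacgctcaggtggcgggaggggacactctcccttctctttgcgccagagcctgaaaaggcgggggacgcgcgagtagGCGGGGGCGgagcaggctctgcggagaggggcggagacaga
Slc17a7: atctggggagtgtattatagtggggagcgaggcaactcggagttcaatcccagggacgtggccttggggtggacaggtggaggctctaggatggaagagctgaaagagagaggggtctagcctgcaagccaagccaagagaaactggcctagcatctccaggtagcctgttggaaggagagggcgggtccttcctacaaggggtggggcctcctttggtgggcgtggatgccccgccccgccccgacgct
Slc17a6: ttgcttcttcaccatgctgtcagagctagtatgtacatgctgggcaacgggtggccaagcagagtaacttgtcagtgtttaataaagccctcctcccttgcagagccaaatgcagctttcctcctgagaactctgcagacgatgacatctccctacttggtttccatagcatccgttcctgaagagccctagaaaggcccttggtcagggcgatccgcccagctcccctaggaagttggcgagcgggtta
Syn1 held the RE1 part at position -232 to -224 and the cAMP response element at -159 to -152 from the RefSeq start, and Syn2 an Egr site at -41 to -33. Only the most upstream window of each gene was searched, where Syn2 and Slc17a6 had 2 windows each and Sv2b had 4. No searched motif was found in that window for Syp, Sv2a, Sv2b, Slc17a7 or Slc17a6. This says only that these letters are absent from those 300 bases. The stretch of Slc17a7 was 61.2% G or C and that of Slc17a6 53.2%, where the 250 bases before all starts had a median of 52.4%. A window for Syn3 was not used here.

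Syp (ENSMUSG00000031144, chromosome X, 7638471 to 7653256, plus strand) had 37545, 55304 and 54416 normalized counts with NGPF2, against 39717, 49842 and 49556 with vehicle. Replicate 1 was lower than replicates 2 and 3 in both groups. The log2 difference within replicates 2 and 3 was 0.14 (SE 0.06, 95% interval -0.02 to 0.30, limma adjusted p = 0.168) and it turned to -0.02 with quantile scaling. No direction was therefore assigned to Syp.

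Sv2a (ENSMUSG00000038486, chromosome 3, 96181151 to 96195521, plus strand), the SV2 form found at most synapses, stood at 20072, 22055 and 20907 normalized counts with NGPF2, against 19901, 15461 and 15712 with vehicle. All NGPF2 libraries lay above all vehicle libraries, as for 4.11% of genes. The margin was small in replicate 1, and vehicle replicates 2 and 3 were the libraries that stood apart. Sv2a rose 1.38-fold within replicates 2 and 3 (log2 0.46, SE 0.06, limma adjusted p = 0.0105), and its mean over 3 cultures was 21011 ± 996 with NGPF2 and 17025 ± 2494 in vehicle cultures (n = 3 each, SD).

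Sv2b (ENSMUSG00000053025, chromosome 7, 75114894 to 75309262, minus strand), the form concentrated in excitatory neurons of the forebrain, stood at very different levels in the library sets. It held 2905, 14277 and 13755 normalized counts with NGPF2, against 2843, 14758 and 13905 with vehicle. Each pair was nearly level, and replicate 1 was far below the others in both groups. The log2 difference within replicates 2 and 3 was -0.03 (95% interval -0.20 to 0.14, limma adjusted p = 0.763).

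Slc17a7 (ENSMUSG00000070570, chromosome 7, 45163949 to 45176142, plus strand) encodes VGLUT1. It held 4244, 23137 and 23857 normalized counts with NGPF2, against 5583, 19837 and 28191 with vehicle. NGPF2 was lower in pairs 1 and 3 and higher in pair 2, and the spread between vehicle replicates 2 and 3 was wider than either difference. The log2 difference was -0.01 within replicates 2 and 3 (95% interval -0.44 to 0.42, limma adjusted p = 0.976). In pair 1 it was -0.40, the largest pair 1 difference of the 8 genes, where the median absolute difference of all genes kept was 0.103. That pair has no replicate.

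Slc17a6 (ENSMUSG00000030500, chromosome 7, 51622006 to 51671119, plus strand) encodes VGLUT2 and was the gene of the 8 that changed most. It held 1344, 733 and 725 normalized counts with NGPF2, against 1357, 1640 and 1802 with vehicle. All NGPF2 libraries lay below all vehicle libraries, as for 5.89% of genes, but the pair of replicate 1 was nearly level. It fell 2.36-fold within replicates 2 and 3 (log2 -1.24, SE 0.09, 95% interval -1.46 to -1.01, limma adjusted p = 0.00251). Over the 3 pairs the log2 difference was -0.83 (SE 0.27, adjusted p = 0.379).

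The size of the effect itself was compared between replicates 2 and 3 and replicate 1 (limma, interaction with the library set, taking the spread of replicate 1 to be that of the others). Slc17a6 was the 1 gene of 8 that passed, with a difference of -1.22 (SE 0.15, adjusted p = 0.031), where 2.49% of all genes did (0.721% higher and 1.77% lower). Syn2, Syn3 and Sv2a had differences of 0.48, 0.89 and 0.45 with adjusted p of 0.0986, 0.0984 and 0.109. Of the alternatives, voom alone brought these 3 under the threshold (adjusted p = 0.0437, 0.0338 and 0.0491). With the replicate block their adjusted p was 0.152, 0.129 and 0.182 (limma). Sv2b had a difference of -0.06 (adjusted p = 0.810).

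**Figure D2:**
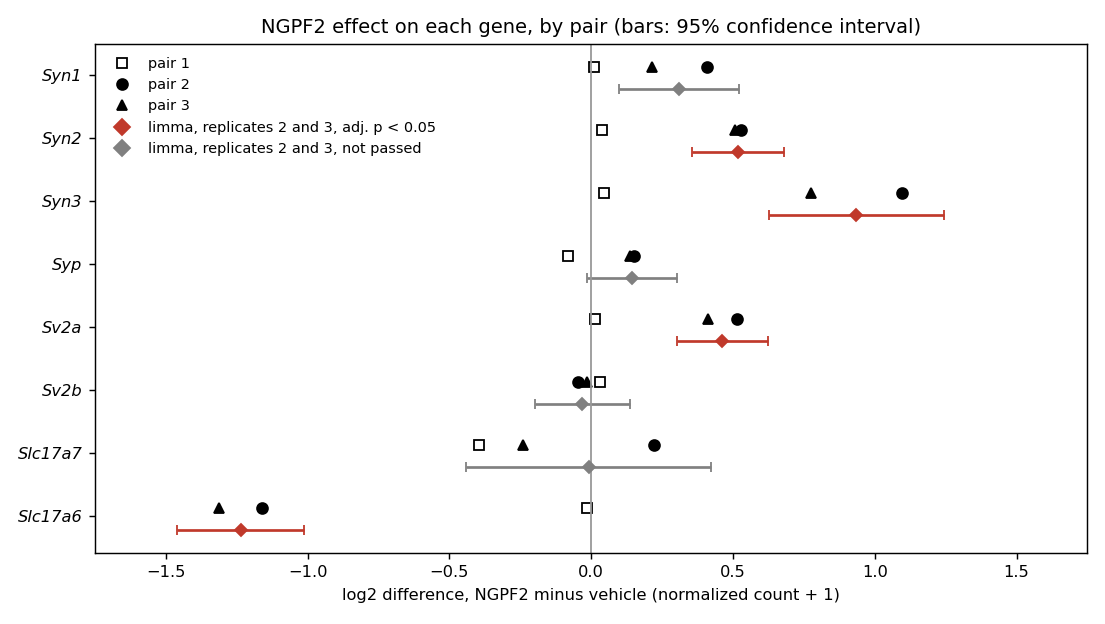
The log2 difference between NGPF2 and vehicle (x axis) of each gene in pairs 1, 2 and 3 (black symbols), with the limma estimate and 95% confidence interval for replicates 2 and 3 below them (diamonds, red where the adjusted p was under 0.05). Pair 1 (open squares) lies near 0 for all genes except Slc17a7 at -0.40, and Slc17a6 stands at -1.16 and -1.31 in pairs 2 and 3.

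The calls within replicates 2 and 3 rest on 2 libraries a group. With no filter on low values Slc17a6 alone of the 8 passed (limma, adjusted p = 0.0414), and Syn2, Syn3 and Sv2a had an adjusted p of 0.0716, 0.0695 and 0.0748, while quantile scaling lowered the log2 differences of Syn1, Syn2 and Sv2a to 0.08, 0.31 and 0.26, of which Syn2 and Sv2a passed (adjusted p = 0.0187 and 0.0260). Leaving out vehicle replicate 2 or vehicle replicate 3 ended every call in the table, those of the 4 genes included. Leaving out NGPF2 replicate 2 or NGPF2 replicate 3 did not. Each of these fits has 3 libraries, with 1 library in a group. The log2 difference of Slc17a6 was -1.30 and -1.17 without vehicle replicate 2 or 3. It was -1.24 and -1.23 without NGPF2 replicate 2 or 3.

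The paralogs of each family are set side by side as shares of the family's summed FPKM. Syn1 made up 75.2%, 73.8% and 72.2% of synapsin FPKM in NGPF2 replicates 1, 2 and 3 and 75.5%, 75.5% and 76.1% in vehicle replicates 1, 2 and 3. Syn2 made up nearly all of the rest, and Syn3 from 0.290% to 0.744%. Syn1 thus made up about the same share in all 6 cultures, and Syn3 was scarcest in vehicle replicates 2 and 3.

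The SV2 shares differed more between the library sets than between the groups. Sv2b, with Sv2c counted in the family, made up 6.76%, 24.98% and 25.3% of SV2 FPKM with NGPF2, against 6.67%, 33.3% and 31.5% with vehicle. Sv2a made up 84.4%, 69.8% and 69.5% with NGPF2, against 84.4%, 63.0% and 64.3% with vehicle. Sv2c, which is not among the 8 genes, rose 1.67-fold within replicates 2 and 3 (limma adjusted p = 0.00797).

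Slc17a6 made up 23.8%, 3.06% and 2.94% of vesicular glutamate transporter FPKM with NGPF2, against 19.4%, 7.60% and 5.99% with vehicle. Slc17a8 (VGLUT3) stayed at or under 0.933% in every library. The log2 ratio of Slc17a7 to Slc17a6 was 1.66, 4.98 and 5.04 with NGPF2, against 2.04, 3.60 and 3.97 with vehicle. NGPF2 was below vehicle in pair 1 and above it in pairs 2 and 3. The mean ratio was 3.89 ± 1.93 with NGPF2 and 3.20 ± 1.02 in vehicle cultures (n = 3 each, SD), a difference of 0.69 with p = 0.6 in a 2-sided exact permutation test over 20 splits, whose smallest p is 0.1. Exchanging labels within pairs gave an exact p = 0.5, where the smallest possible is 0.25.

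**Figure D3:**
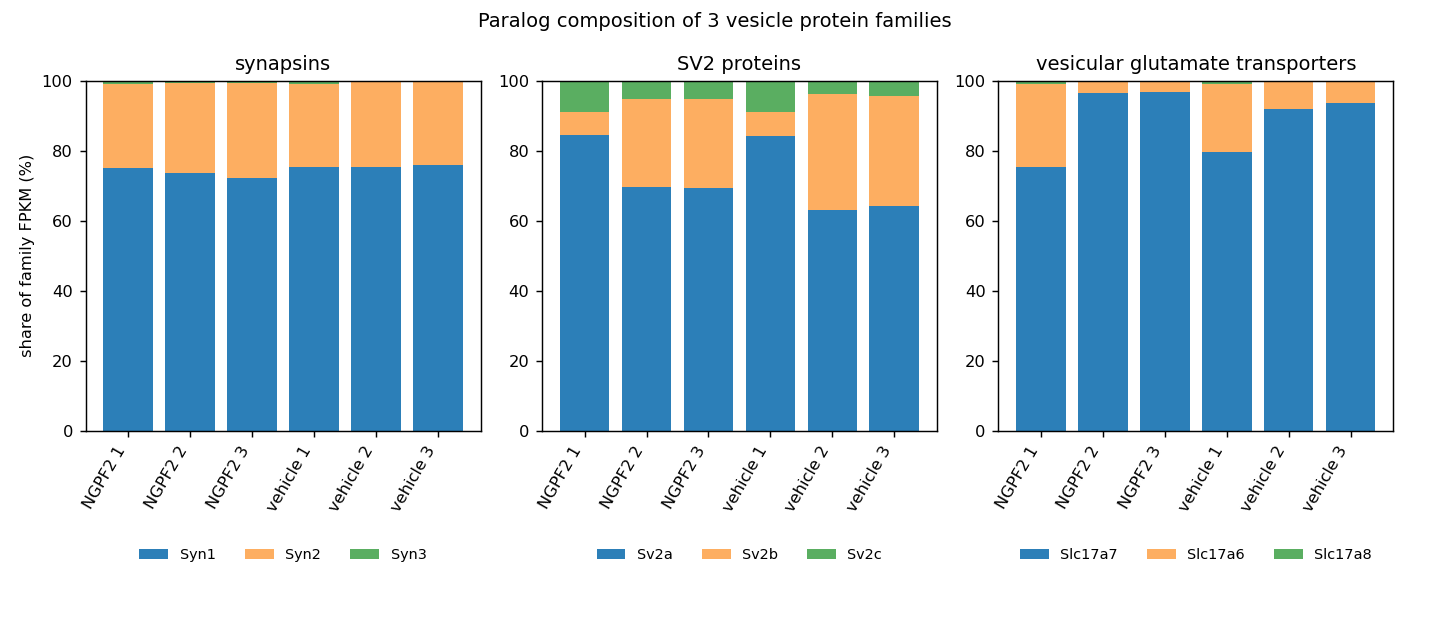
Share of each paralog in the summed FPKM of its family (y axis, percent) in each culture (x axis), for synapsins, SV2 proteins and vesicular glutamate transporters. Syn1 takes 72.2% to 76.1% of synapsin FPKM in all 6 cultures, while Sv2b is at 6.76% and 6.67% in replicate 1 and at 24.98% to 33.3% elsewhere, and Slc17a6 is 23.8% and 19.4% in replicate 1 and at most 7.60% elsewhere.

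Sv2b and Slc17a7 differed far more between library sets than between groups. Among vehicle cultures, Sv2b was 5.04-fold and Slc17a7 4.30-fold higher in replicates 2 and 3 (mean) than in replicate 1, and Syn3 was lower there, with 348 and 390 normalized counts against 827. On the mean log2 value 3 of the 8 genes were past 2-fold in this comparison, where 15% of all genes were, and 2 of the 8 past 4-fold, where 3.97% were. With 1 vehicle library in replicate 1 this has no test. Syn1 and Syn2 differed least, at 1.06-fold each.

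The genes most like each member over the 6 libraries were sought among 11247 named protein-coding genes with a mean of at least 100 normalized counts, by the root mean square difference of log2 values centred on their mean. The 6 values share library and batch, so this is a description. Nearest to Syn1 were Polr1c, Strn4 and Vps26b (0.0110 to 0.0247), to Syn2 Rilpl1, Epop and Rilpl2 (0.0147 to 0.0292), and to Syp Rtf2, Rhot1 and Anxa6 (0.0184 to 0.0263). Sv2a lay nearest to Tuba1b, Rab3a and Jmjd6 (0.0216 to 0.0279) and Syn3 to Cdh9, Hs3st1 and Slc29a4 (0.0535 to 0.0820). Sv2b lay nearest to Gria3, Mical2 and Inka2 (0.0999 to 0.121) and Slc17a7 to Hipk4, Cyp26b1 and Mical2 (0.150 to 0.189). Slc17a6 lay nearest to Spry4, Plod1 and B2m (0.0595 to 0.0686). Within the 8 genes, Syn1 and Syn2 were 0.102 apart and Sv2b and Slc17a7 0.213, while the nearest to Slc17a6 was Syp at 0.656.

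Other genes of the vesicle cycle were counted in 4 lists, which like the 8 genes were called 0 times over the 3 pairs. The lists were chosen with earlier results of these data known, so their counts are a description. Each list's counts within replicates 2 and 3 stand against 9.77% of all genes called higher and 11.3% called lower in that fit. Of 20 further vesicle membrane genes 7 rose and 0 fell. The genes of smallest p were Sv2c, Svop, an SV2-related protein (1.29-fold), Slc32a1, the vesicular GABA transporter (1.67-fold), and Rab3a, the vesicle GTPase (1.33-fold), with limma adjusted p of 0.00797, 0.0235, 0.0115 and 0.0133. The relatives of synaptophysin did not pass: the log2 difference was 0.14 for Syngr1, 0.20 for Syngr3, -0.26 for Synpr and -0.43 for Sypl. Slc17a8 held 46.1, 57.4 and 73.6 normalized counts with NGPF2 and 53.5, 55.4 and 42.9 with vehicle, and did not pass.

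Of 16 genes of vesicle endocytosis and recycling 6 rose and 0 fell within replicates 2 and 3, where 9.77% of all genes rose and 11.3% fell. Those of smallest p were Amph, amphiphysin (1.77-fold), Bin1 (1.48-fold), Dnm1, the neuronal dynamin that severs endocytic vesicles (1.51-fold), and Clta, a clathrin light chain (1.29-fold). Amph was the 1 gene of this list whose effect also differed from that in replicate 1 (limma adjusted p = 0.0471), against 0.721% of all genes with a difference called higher.

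Of 15 genes listed as kinases, phosphatases and partners of synapsins, 10 rose and 1 fell within replicates 2 and 3, beside 9.77% and 11.3% of all genes. The catalytic subunit of protein kinase A Prkacb, whose kinase phosphorylates synapsin, rose 1.55-fold, Mapk3 (ERK1) 1.65-fold, Nos1ap, an adaptor that binds synapsin, 1.71-fold and Ppp2ca, a catalytic subunit of phosphatase 2A, 1.41-fold. Adjusted p was 0.00537, 0.00632, 0.00696 and 0.0106 in that order (limma). The gene that fell was Rph3a, rabphilin (1.30-fold, limma adjusted p = 0.0309).

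Of 11 genes of glutamate supply and uptake 3 rose and 5 fell within replicates 2 and 3, beside 9.77% and 11.3% of all genes. The effect on these 5 also differed from that in replicate 1, a difference called lower for 1.77% of all genes. One of the 5, Slc1a2, was higher with NGPF2 in pair 1 (log2 1.17). Those of smallest p were Glul, glutamine synthetase (log2 -2.15), Slc1a3, the glial transporter GLAST (-2.78), Slc38a3, a glutamine exporter of astrocytes (-2.68), and Glud1, glutamate dehydrogenase (-0.92). Slc1a2 and Slc1a3 are counted among the astrocyte markers as well.

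**Figure D4:**
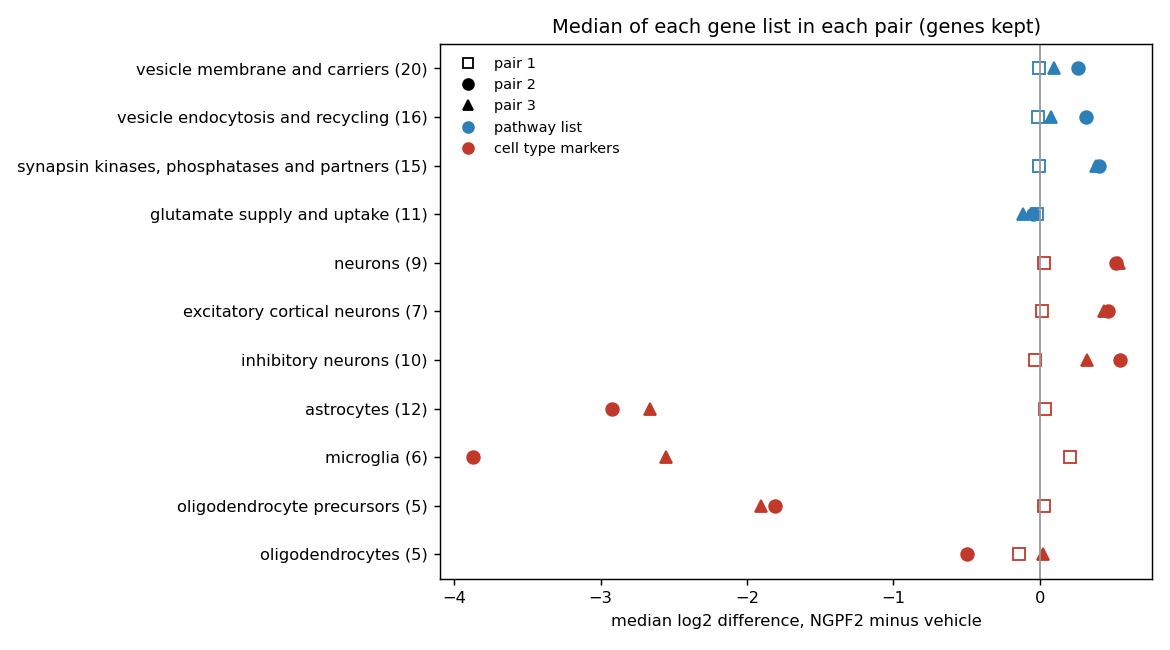
Median log2 difference between NGPF2 and vehicle (x axis) over the genes kept of each list (number in brackets), in pair 1 (open squares), pair 2 (circles) and pair 3 (triangles); blue marks pathway lists and red cell type markers. Pair 1 medians lie between -0.14 and 0.21, and the astrocyte medians of pairs 2 and 3 lie at -2.92 and -2.66.

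The median log2 differences in pairs 1, 2 and 3 were -0.01, 0.26 and 0.10 for the vesicle membrane list, -0.01, 0.32 and 0.07 for endocytosis, -0.01, 0.40 and 0.38 for synapsin partners and -0.02, -0.05 and -0.11 for glutamate supply. Over all genes kept the medians were -0.003, -0.006 and 0.

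Markers of other cell types moved in the same pairs as the 4 called genes, and their counts too stand against 9.77% of all genes called higher and 11.3% called lower. Within replicates 2 and 3 all 12 astrocyte markers fell, those of highest level being Slc1a2, Slc1a3 and Ndrg2. Of 8 microglia markers 6 were kept and 5 of these fell, with sums of 896, 23.9 and 57.4 normalized counts in NGPF2 replicates 1, 2 and 3 and 784, 429.6 and 351 in vehicle replicates 1, 2 and 3. Aif1 was at 0 in NGPF2 replicates 2 and 3 and Cx3cr1 in NGPF2 replicate 2, and Csf1r, C1qb and C1qc had the highest levels. Of 5 markers of oligodendrocyte precursors 3 fell (Olig1, Olig2 and Cspg4, the highest of the list), and of 5 oligodendrocyte markers 2 fell, while Mbp (log2 -0.30) did not pass.

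Against the same shares of all genes (9.77% higher, 11.3% lower), 6 of 9 neuronal markers rose and 0 fell within replicates 2 and 3, with Stmn2 at 1.66-fold, while Snap25 (log2 0.10) and Map2 (-0.07) did not pass. Of 7 excitatory markers 4 rose and 1 fell, with Neurod2 at 1.98-fold, and Bcl11b (log2 0.38) did not pass. The excitatory marker that fell was Neurod6 (1.49-fold, limma adjusted p = 0.00880). Of 10 inhibitory markers 5 rose and 2 fell, with Gad1 and Slc32a1 among those that rose, and Gad2 (log2 0.21) did not pass. Those that fell were Sst and Npy. The part of these shifts in the values of Syn2, Syn3, Sv2a and Slc17a6 was not tested. In bulk RNA, fewer cells of a type and less RNA per cell cannot be told apart.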

How the data were processed

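RNA was sequenced from 6 cultures, 3 per group. The deposited table holds log2 values, although it is named for FPKM. Undoing the log2 and the added 1 gave, for each library, values of which 100% were whole multiples of a single step (tolerance 0.01 of a count), so the authors' values are log2 normalized counts and the counts could be recovered. Tools named in the submitters' processing notes, without role or order, are STAR 2.5, DESeq 1.22.1, Cuffnorm and FastQC, and the build is mm10. For the counting tool and its strand setting, no source was at hand.

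Columns were matched to replicates 2 and 3 by library name. The column left over in each group, which bears the digit 3, was taken for replicate 1 by elimination and its first letter. Symbols were found for 31185 of 31245 identifiers. Exon lengths, coordinates and overlaps came from GENCODE M21 on the same build, and FPKM was computed from the recovered counts.

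Tests used limma 3.58.1 in R 4.3.3 (eBayes with trend, 2-sided), with Benjamini-Hochberg adjustment over the 16653 genes kept and a threshold of 0.05. The replicate number was a block over the 3 pairs, since the series states pairs. As a check of the pairing, same-numbered libraries were compared in how each gene departed from its group mean (r = 0.59, 0.30 and 0.33 across genes). NGPF2 replicate 2 with vehicle replicate 3 gave 0.32 and NGPF2 replicate 3 with vehicle replicate 2 gave 0.34, so these values set replicate 1 apart but do not tell pair 2 from pair 3, and the pairing rests on the series' statement and the numbers. No block was used within replicates 2 and 3. Within a group, counts of replicates 2 and 3 differed beyond sampling noise (chi-square per gene of 15.2 with NGPF2 and 13.8 with vehicle), so they are not 1 library deposited again. This does not show that they are independent cultures. Alternatives were another pseudocount, other filters and scalings, voom, the block and leaving out libraries. Members, lists and fits were chosen with earlier results of these data known. Named genes are the 8 members, up to 4 genes of smallest p within replicates 2 and 3 per pathway list, the relatives of the members, up to 3 genes of highest level per marker list, and the 3 nearest in pattern to each member. Timp1, Timp3, Timp4 and Gm14703 were added for their position, and Rph3a, Neurod6, Aif1, Cx3cr1, Slc30a3, Pvalb, Sst and Npy after their values were seen. Some genes that this rule names are not reported here. Figures were drawn with matplotlib 3.10.9.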

Additional observations from a re-analysis of the deposited data

Results flagged for a closer look

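The NGPF2 effect on Slc17a6 passed a test of its difference between the library sets. The effect in replicates 2 and 3 minus that in replicate 1 was -1.22 on the log2 scale (limma interaction, adjusted p = 0.031 over 16653 genes). For replicate 1 the test used the spread of replicates 2 and 3, which share library stem and lane. Its p may therefore not measure the spread between independent experiments. Slc17a6 was nearly level in pair 1 (log2 -0.01), where the median absolute difference of all genes kept was 0.103. It was lower with NGPF2 in pairs 2 and 3 (log2 -1.16 and -1.31). Leaving out either NGPF2 library of replicates 2 and 3 moved the adjusted p to 0.0534 or 0.0536, and leaving out vehicle replicate 2 or 3 to 0.335 or 0.345.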

How the results depend on the processing

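Of the values of single members under the alternatives, 73 kept their direction and side of the threshold over the 3 pairs, 4 passed it and 3 reversed. Within replicates 2 and 3, 70 kept both, 11 lost the call, 3 gained it and 4 reversed, and for the difference of the effect 81 kept both, 4 lost the call and 3 gained it. Over the 3 pairs, 1 gene was called lower with a pseudocount of 10 and 1 without the replicate block, and leaving out a replicate gave 0 to 4 members, 0 to 1436 genes higher and 0 to 1839 lower, with the highest counts without replicate 1. Within replicates 2 and 3, no filter left 1 member, 337 genes higher and 737 lower. Scaling by library total gave 982 higher and 2664 lower, and moved the median of all genes to -0.13 (log2). Leaving out a library there gave 0 to 5 members, 0 to 1473 genes higher and 0 to 1746 lower. The replicate block there gave 4 members, 1436 genes higher and 1839 lower. For the difference of the effect, genes higher and lower numbered 187 higher with a pseudocount of 10, 1922 and 2762 with no filter, 250 and 483 with a minimum of 50, 184 higher with quantile scaling, 462 lower with library total scaling, and 485 and 883 with voom, which called 4 members. Leaving out a library gave 0 members, 0 to 113 genes higher and 0 to 302 lower.

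Directions turned only in values that were not called. Syp over the 3 pairs became -0.038 with quantile and -0.017 with library total scaling, and -0.022 within replicates 2 and 3 with quantile scaling. With libraries left out, Sv2b ran from -0.032 without replicate 1 to 0.0076 without replicate 2 over the 3 pairs. Within replicates 2 and 3 it then ran from -0.075 to 0.011 without vehicle replicate 3 or 2. The scalings took Sv2b lower, though it was not called. Over the 3 pairs it was -0.118 with quantile and -0.096 with library total scaling. The same scalings gave -0.191 and -0.159 within replicates 2 and 3. Slc17a7 there ran from -0.26 without vehicle replicate 2 to 0.24 without vehicle replicate 3, and was 0.013 without NGPF2 replicate 2. The log2 ratio of Slc17a7 to Slc17a6 differed by 0.34 to 1.23 when a pair was left out. The cause of these shifts was not tested.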

Other observations

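The genes here were singled out after their values were seen. Slc30a3 (ZnT3), the transporter that loads zinc into glutamatergic vesicles, held 122, 1466 and 2396 normalized counts in NGPF2 replicates 1, 2 and 3, against 113, 1233 and 1126 in vehicle replicates 1, 2 and 3. Among vehicle cultures its mean in replicates 2 and 3 was 10.45-fold that of replicate 1, a step in the same direction as those of Sv2b and Slc17a7. Between the groups it did not pass within replicates 2 and 3 (log2 0.67, limma adjusted p = 0.109).

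Markers of inhibitory neuron classes moved in opposite directions within replicates 2 and 3. Pvalb, parvalbumin, held 41.6, 419.6 and 488 normalized counts with NGPF2, against 54.2, 46.4 and 48.9 with vehicle, and rose 9.32-fold (limma adjusted p = 0.00148). The neuropeptide genes Sst and Npy fell 2.11-fold and 2.79-fold (limma adjusted p = 0.00287 and 0.00565). Sst held 20308, 1536 and 1434 normalized counts with NGPF2, against 21131, 2998 and 3286 with vehicle. Npy held 4942, 846 and 955 with NGPF2, against 5372, 2185 and 2880 with vehicle. Both were highest in replicate 1 of each group, where the log2 difference was -0.06 for Sst and -0.12 for Npy.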
